A study of Mus musculus with 8 samples.

Results

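The H3K27Ac landscape of the control mouse heart at P7 (postnatal day 7) was described by all 45987 of the 45987 peaks in the authors' table, each read only through the mean of the control group. H3K27Ac is acetylation of lysine 27 on histone H3, and chromatin carrying it was collected with an antibody and sequenced (ChIP-Seq). The controls were 2 mice with the genotype Arid1a f/f Control, in which both Arid1a alleles are floxed and no Cre is present. Their ventricles were used, and each heart gave an H3K27Ac library and an input library without antibody. The series holds 8 libraries in all, the other 4 being from 2 littermates in which αMHC-Cre also removes Arid1a in heart muscle cells. Those mutants were not compared with the controls here, but their reads entered the peak set, which keeps regions detected in at least 2 of the 4 H3K27Ac libraries. A region marked mainly in the mutants can therefore be listed with a low control value.

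Acetylated H3K27 marks nucleosomes at promoters and enhancers in use, and in differentiated cells broad stretches of it often lie over genes that define the cell type. In the week after birth mouse heart muscle cells leave the cell cycle, turn from glucose to fatty acids as fuel and replace fetal contractile proteins with adult ones. Ventricles also hold endothelial cells, fibroblasts, pericytes and blood cells, and in such tissue few cells with much mark cannot be told apart from many cells with little.

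The table gives the control mean of each peak as a log2 concentration. It was turned back into normalized reads, and reads per kb is that number divided by the peak's width. The column is a mean over both hearts with no value per heart, so no spread between hearts, no depth per library and no test could be given. All levels below are the authors' control mean. The concentrations are rounded, so that separate peaks can share a value. Intervals on shares of peaks or genes are 95% Wilson intervals and cover counting error only. A start is a curated RefSeq transcription start, a gene's level is that of the peak with the most reads per kb over any of its starts, and a gene with no such peak is at 0.

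Before the values, the DNA under several of these peaks is shown, from the RefSeq reference GRCm38 (mm10). Capitals mark matches, on either strand, to any of 13 short motifs searched. The GATA factors' site was searched as AGATAA and that of the TEAD factors as CATTCC. The ESRR nuclear receptors were given AAGGTCA and the MEIS proteins TGACAG. For the TBX family the letters were AGGTGTG, for the E-box of helix-loop-helix factors CAGCTG and for the AP-1 family TGANTCA. The ETS family stood as CCGGAAG, the SP1 family as GGGCGG, the NFY complex as CCAATCA and CTCF as CNAGGTGGC. The other two were the MEF2 site and the CArG box, which SRF binds. A match describes these letters and is not a measured binding site.

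The 200 bases before the most 5′ start are shown for 4 genes of the sarcomere and of calcium handling. Among the listed sarcomere, calcium and atrial genes with few CpG dinucleotides around the start, they had the most reads per kb. All are read on the gene's strand.

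Ldb3, chr14:34588682-34588881, minus strand: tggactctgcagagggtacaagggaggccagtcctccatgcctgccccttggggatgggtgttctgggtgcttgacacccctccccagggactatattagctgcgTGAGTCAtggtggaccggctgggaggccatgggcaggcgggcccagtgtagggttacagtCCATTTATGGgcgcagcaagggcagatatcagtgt

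Actc1, chr2:114052876-114053075, minus strand: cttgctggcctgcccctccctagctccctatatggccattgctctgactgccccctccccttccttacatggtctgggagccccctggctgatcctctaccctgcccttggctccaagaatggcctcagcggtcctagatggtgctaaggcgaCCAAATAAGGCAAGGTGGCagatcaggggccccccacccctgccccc

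Jph2, chr2:163397994-163398193, minus strand: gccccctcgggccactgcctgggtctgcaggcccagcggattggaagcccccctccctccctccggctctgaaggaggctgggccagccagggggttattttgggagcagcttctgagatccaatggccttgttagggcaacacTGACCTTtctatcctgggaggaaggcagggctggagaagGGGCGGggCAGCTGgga

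Pln, chr10:53337486-53337685, plus strand: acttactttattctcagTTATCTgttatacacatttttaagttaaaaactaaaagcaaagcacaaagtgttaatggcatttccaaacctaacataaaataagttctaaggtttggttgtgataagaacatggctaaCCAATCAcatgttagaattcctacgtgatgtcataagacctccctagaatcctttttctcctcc

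Ldb3, a Z-disc protein, and Actc1, the cardiac actin, each held 1 CArG box, a site found in 1.10% of the 200 bp windows of all protein-coding genes. Jph2, which ties the cell membrane to the calcium store, held 1 match each to ESRR (2.53% of windows), E-box (9.74%) and SP1 (42.6%). Pln, the inhibitor of the calcium pump, held 1 GATA match (6.62%) and 1 NFY match (8.17%). The remaining matches were an AP-1 site in Ldb3 (4.74%) and a CTCF site in Actc1 (0.986%). None of the 4 windows held the MEF2 site, which was in 0.391% of all windows.

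For contrast, the same windows are shown for a pair of ventricular genes with much H3K27Ac, Myh6 and Myl2, and for a pair of atrial genes with little, Nppa and Myl7. These were chosen after their values were seen.

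Myh6, chr14:54966608-54966807, minus strand: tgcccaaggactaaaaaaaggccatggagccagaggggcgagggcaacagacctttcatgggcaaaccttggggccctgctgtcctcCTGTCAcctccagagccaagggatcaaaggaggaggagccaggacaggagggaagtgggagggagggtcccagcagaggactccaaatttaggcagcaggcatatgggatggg

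Myl2, chr5:122092524-122092723, plus strand: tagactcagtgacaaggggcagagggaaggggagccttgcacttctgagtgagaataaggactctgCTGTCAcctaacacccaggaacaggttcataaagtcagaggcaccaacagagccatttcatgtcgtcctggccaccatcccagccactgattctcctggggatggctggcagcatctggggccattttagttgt

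Nppa, chr4:148000522-148000721, plus strand: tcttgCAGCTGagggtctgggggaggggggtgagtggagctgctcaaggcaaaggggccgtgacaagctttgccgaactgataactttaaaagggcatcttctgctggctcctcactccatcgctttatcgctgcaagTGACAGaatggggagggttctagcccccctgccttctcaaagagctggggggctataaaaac

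Myl7, chr11:5898783-5898982, minus strand: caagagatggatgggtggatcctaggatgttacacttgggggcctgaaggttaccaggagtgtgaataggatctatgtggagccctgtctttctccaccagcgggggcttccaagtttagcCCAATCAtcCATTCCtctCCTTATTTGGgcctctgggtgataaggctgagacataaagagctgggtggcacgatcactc

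The windows of Myh6 and Myl2 held 1 match each, both to MEIS (11.8% of windows). Nppa held 1 MEIS match and 1 E-box, and Myl7 held a TEAD match (8.92%), a CArG box and an NFY match. Thus the muscle CArG box was present before the weakly marked Myl7 start and absent from the windows of Myh6 and Myl2.

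The central 300 bases are shown for the 3 peaks with the most reads per kb among those over 5 kb from any start and at least 1000 bp wide. They are followed by the strongest such peak with a MEF2 match in its centre, chosen after the motif values were seen.

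4930467E23Rik peak, chr8:19784869-19785168, plus strand: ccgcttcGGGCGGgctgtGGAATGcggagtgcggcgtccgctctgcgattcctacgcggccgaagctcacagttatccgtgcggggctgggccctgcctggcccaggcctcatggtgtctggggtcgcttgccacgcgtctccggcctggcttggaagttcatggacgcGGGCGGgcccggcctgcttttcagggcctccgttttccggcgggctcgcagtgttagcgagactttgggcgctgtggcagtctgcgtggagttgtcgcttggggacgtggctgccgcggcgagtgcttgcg

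Gm7102 peak, chr19:61199642-61199941, plus strand: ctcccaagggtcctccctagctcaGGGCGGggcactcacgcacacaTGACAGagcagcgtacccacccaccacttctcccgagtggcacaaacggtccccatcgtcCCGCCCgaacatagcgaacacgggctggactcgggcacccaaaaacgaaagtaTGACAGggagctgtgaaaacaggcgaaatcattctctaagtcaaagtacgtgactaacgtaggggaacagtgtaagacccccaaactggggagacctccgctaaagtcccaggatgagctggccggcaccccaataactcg

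Klf9 peak, chr19:23135354-23135653, plus strand: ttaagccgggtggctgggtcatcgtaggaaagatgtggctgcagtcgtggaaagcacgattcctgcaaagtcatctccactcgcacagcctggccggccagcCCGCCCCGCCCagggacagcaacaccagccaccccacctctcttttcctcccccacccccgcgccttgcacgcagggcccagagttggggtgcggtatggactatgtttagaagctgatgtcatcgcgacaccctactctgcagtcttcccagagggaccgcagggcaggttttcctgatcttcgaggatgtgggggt

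Syt7 peak, chr19:10417031-10417330, plus strand: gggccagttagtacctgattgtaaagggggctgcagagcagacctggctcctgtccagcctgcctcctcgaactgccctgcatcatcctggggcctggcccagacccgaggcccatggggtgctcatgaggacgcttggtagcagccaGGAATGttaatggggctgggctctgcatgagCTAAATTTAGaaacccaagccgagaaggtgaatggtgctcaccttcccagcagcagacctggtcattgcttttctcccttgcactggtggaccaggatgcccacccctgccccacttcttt

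The peak 55.4 kb from 4930467E23Rik had 368 reads per kb over 1027 bp, and its central 100 bp had 2 exact copies in the reference. The peak 23.5 kb from Gm7102 had 301 reads per kb over 1281 bp, with 1 copy of its centre. The peak 5.72 kb from Klf9, a Krüppel-like transcription factor gene, was of another form, with 1652 reads over 5898 bp and 280 reads per kb. The Syt7 peak lay in an intron 28.1 kb from the start and had 699 reads over 4168 bp, or 168 reads per kb. All of the first 3 centres held 2 SP1 matches, and the Syt7 centre held 1 MEF2 and 1 TEAD match.

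The signal was concentrated in few, broad peaks. The median peak was 1781 bp wide and had 44.9 reads, or 24.1 reads per kb, while the highest values were 6383 reads and 422 reads per kb. Counted from the strongest downwards, 4241 peaks (9.22%) held 50% of all control reads. The top 1% by reads, 460 peaks with a median width of 13132 bp, held 14.3%. The lower 50% of peaks held 8.14%, and 4667 peaks (10.2%) had at most 10 reads. On the 21 chromosomes the 45980 peaks covered 111 Mb, which was 4.08% of the sequence.

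Width and density went together but picked different peaks at the top. Across the peaks the Spearman correlation of width with reads per kb was 0.63, that of CpG ratio with reads per kb was 0.40 and that of GC content was 0.22, all given as descriptions of peaks that share their libraries. The top 1% by reads per kb had a median width of 3198 bp and a median CpG ratio (observed over expected) of 0.68, and 95.4% of them covered a start. In the top 1% by reads the CpG ratio was 0.31 and 78.5% covered a start. Only 94 of the 460 peaks were in both groups.

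**Figure D1:**
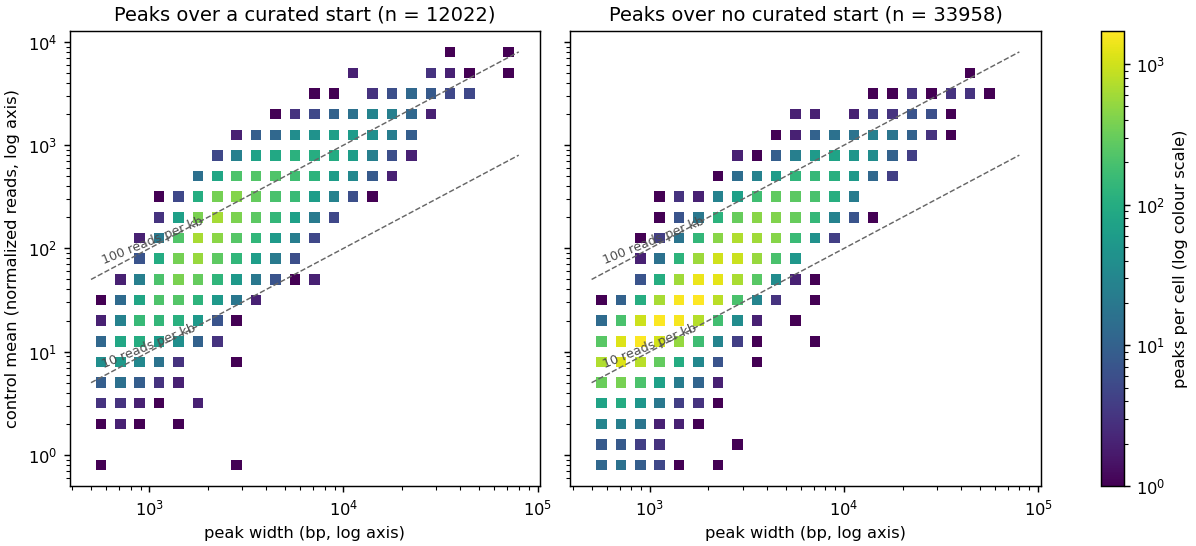
Control mean in normalized reads (log axis) against peak width in bp (log axis) for peaks over a curated start (left) and over none (right). The colour of each square counts peaks on a log scale and the dashed lines mark 10 and 100 reads per kb. The 12022 peaks over a start have a median of 62.3 reads per kb and the 33958 others one of 19.7, and peaks of more than 10 kb occur in both panels.

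Most peaks lay away from promoters. By the position of its centre, a peak was in an intron in 50.4% of cases (95% interval 49.98 to 50.90), intergenic in 29.6% (29.1 to 30.0) and in a promoter, from 1000 bp before to 100 bp after a start, in 11.3% (11 to 11.6). Promoter peaks were denser, with a median of 61.2 reads per kb (95% interval of the median over peaks 59.8 to 62.7) against 22.4 in introns and 20.2 between genes, and they held 18.7% of the reads. Counted by whether a start lay anywhere inside, 26.2% of the peaks covered a start and held 54.8% of the reads. Peaks 50 to 500 kb from the nearest start made up 22.9% and held 13.7% of the reads.

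Of the 10 peaks with the most reads, the highest, chr3:96548773-96580792, was 32020 bp wide, had 6383 reads and covered the start of Txnip, an inhibitor of glucose uptake, though the start nearest to its centre was the noncoding Gm15441. The next, 70224 bp wide with 6339 reads, covered the start of Adam19, a membrane metalloprotease, and had Mir8100 as the start nearest its centre. The third covered Atp2a2, the calcium pump SERCA2 of the sarcoplasmic reticulum, over 42703 bp with 5997 reads. Peaks of 5008 reads over Hspg2, the basement membrane proteoglycan perlecan, and of 4068 reads over the shared start region of Col4a1 and Col4a2, which encode collagen IV, also belonged to the highest 10.

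The same 10 held the transcription factor gene Hand2, with 4012 reads over 28415 bp, and a 47588 bp stretch of 4330 reads inside the Fhod3 gene. FHOD3 is a formin of the cardiac sarcomere, and this stretch was the only peak of the 10 with no start inside, lying 148 kb from the start of its gene. Ptp4a3 (4300 reads), Tnrc18 (4270) and Setd1b with Rhof (4153) completed them. Tnrc18 and Setd1b were also among the 10 peaks with the most reads per kb of those at least 1000 bp wide, at 346 and 334. The others of that ranking were mostly narrow peaks over widely used genes. They included Kmt5b (396 reads per kb), a histone methyltransferase, Hnrnpu (371), an RNA-binding protein, Efcab2 (352), Flcn (339) and Zc3h6 (334). A peak beside the noncoding B330016D10Rik had 340 reads per kb, and the peak near 4930467E23Rik shown above was the only one of the 10 far from any start.

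Summed over all peaks with the same nearest start, the 15 largest totals included those of Ablim1 (7850 reads in 36 peaks), an actin-binding LIM protein, and Trak1 (7702 in 9), an adaptor for mitochondrial transport. Fhod3 (7586), Irf2bp2 (7074), Rbm20 (6959), the splicing regulator of titin, Atp2a2 (6801), Tcf4 (6660), Rbpms (6533), Pde4b (6433), Hspg2 (6121) and Gata4 (6068) followed, with the noncoding 9430078K24Rik (6508 in 55 peaks), Gm15441 (6383) and Mir8100 (6339) between them. With starts of protein-coding genes alone, a ranking added after seeing the data, 8 of these 15 stayed among the first 15, which were then led by Zfp36l1 (10785 in 62 peaks) and Qk (10599 in 40), both RNA-binding proteins. None of the 15 was among the 15 genes with the densest single peak.

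Of 21000 protein-coding genes, 11960 had a start inside a peak, which is 57.0% (56.3 to 57.6), and the median over all genes was 26.1 reads per kb. Against this background the lists of heart muscle genes stood high. Of 24 sarcomere genes 23 had a start in a peak, with a median of 105 reads per kb, and the peaks over them had a median width of 9746 bp, against 2233 bp for all genes with such a peak. Ldb3 had the most (168 reads per kb, 2320 reads), then Actc1 (167, 2165 reads) and the α-actinin gene Actn2 (147, 1438 reads). Nebl, a nebulin relative of the Z-disc, was the only one without. No peak covered its start, but 1 lay within 1000 bp, since that tolerance gave all 24 genes. In all, 6 peaks with 626 reads were nearest to it.

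The cardiac transcription factor list had a start in a peak for 18 of 19 genes and a median of 135 reads per kb. Mef2a led with 234 reads per kb, followed by Prdm16 (198) and Srf (187), and Hand1 had neither a peak over its start nor any peak nearest to it. Its relative Hand2 lay under the 4012 reads described above. In the calcium handling and ion channel list 18 of 20 genes were covered, with a median of 116, and the gap junction gene Gja1 (181) and Jph2 (158) were among its highest. The potassium channel Kcnd2 and the pacemaker channel Hcn4, a marker of the conduction system, were not covered. Arid1a itself, intact in these mice, had a peak of 1607 reads over its start, and its 198 reads per kb were at percentile 98.6 of the protein-coding genes.

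**Figure D2:**
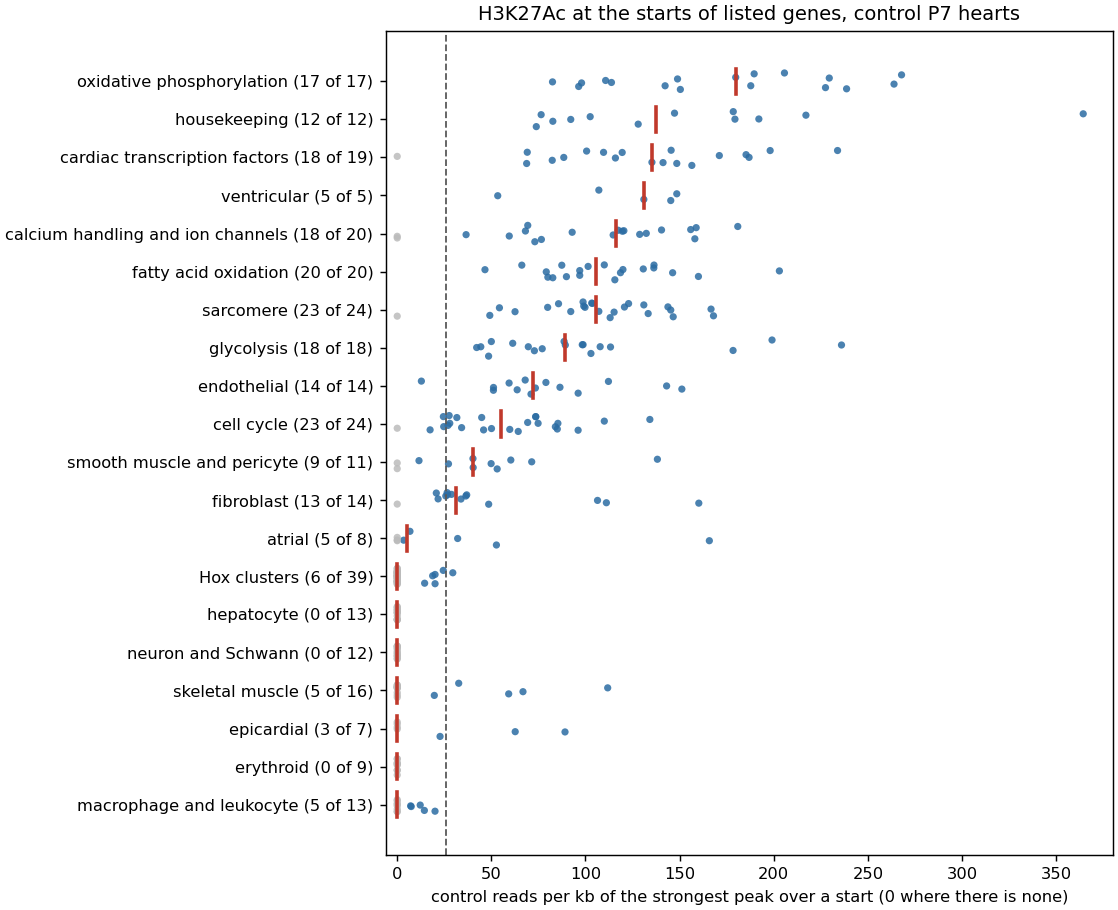
Control reads per kb of the strongest peak over a start, with a point for each gene of 20 lists. Grey points at 0 are genes with no peak over a start, red bars are list medians with those genes at 0, and the dashed line is the median of all protein-coding genes, 26.1. Numbers in brackets give genes with a start in a peak of all genes in the list. Oxidative phosphorylation has the highest median (180), and the erythroid, neuron and Schwann and hepatocyte lists have no gene above 0.

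The metabolic lists differed in the form of their peaks. All 17 oxidative phosphorylation genes were covered, with the highest median of any list, 180 reads per kb, in peaks of a median 2717 bp. Cyc1 (268 reads per kb), Cox6c (264) and Cox5a (239) led. The 20 fatty acid oxidation genes were all covered too, at a median of 106 reads per kb, but in peaks of a median 7680 bp. The lipid sensor Ppara (203), the lipoprotein lipase gene Lpl (160) and the dehydrogenase Acadl (146) led them. The widest stretch of that list was 26188 bp with 2539 reads, shared by Hadha and Hadhb, which encode the trifunctional protein. All 18 glycolytic genes were covered at a median of 89.0 and 4240 bp, led by Ldha (236), Pfkm (199) and Aldoa (178). In reads, the median was 933 for fatty acid oxidation, 461 for oxidative phosphorylation and 360 for glycolysis, so the order of the lists depended on the scale.

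Housekeeping genes were covered in 12 of 12 cases with a median of 138 reads per kb, in peaks of a median 3385 bp. Ubb (217) and Eef1a1 (192) were among the highest. The sarcomere list, at 105 reads per kb in peaks of a median 9746 bp, was thus less dense and broader. Of the cell cycle list 23 of 24 genes were covered, at a median of 54.9 reads per kb with the uncovered gene at 0. That was above the 26.1 of all protein-coding genes, taken in the same way, and below the 67.3 of the covered ones. The CDK inhibitor gene Cdkn1b had the most (134), followed by E2f3 (110) and Cdk6 (96.1), and Ccna2, cyclin A2, was not covered. Within 1000 bp of a start, all 24 had a peak. Of the genes used in mitosis Cdk1 had 50.1 reads per kb, Aurkb 45.9, Ccnb2 34.2, Plk1 27.9, Top2a 27.6 and Ccnb1 17.5.

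The dissected tissue was ventricle, and ventricular markers were the higher chamber markers. All 5 ventricular genes were covered, at a median of 131 reads per kb, with Irx4 (149), Myl3 (145) and Myl2 (131) highest and Hey2 (53.4) lowest. Of 8 atrial genes 5 were covered, at a median of 5.09. Nppa, the natriuretic peptide gene that ventricles express before birth, had 49.5 reads over 7324 bp (6.76 reads per kb), Myl7, the atrial light chain, had 2.45 reads over 715 bp, and Sln, Bmp10 and Hamp had no peak. Myl4 was high (166), but its peak of 2651 bp also covered the start of Cdc27. Nr2f2 (52.7) and Nr2f1 (32.1) made up the rest, factors of atrial muscle that other cells of the heart also use.

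Of the lists for other cells of the ventricle the endothelial list was highest, with 14 of 14 genes covered. Their median was 72.2 reads per kb, against 67.3 for all covered genes, in peaks of a median 10005 bp. Fli1 (151), Egfl7 (143) and Sox18 (112, shared with Tcea2) led, and Vwf (12.8), a marker of larger vessels, was lowest. Of the fibroblast list 13 of 14 were covered. Its median was 31.4 reads per kb, against 26.1 for all genes and 67.3 for the covered ones. In reads its median was 217, against 40.7 and 164. Vim (160), Sparc (111) and Fbn1 (106) were high and are used by several cell types, the collagen genes Col1a1 and Col3a1 had 20.8 and 25.8 reads per kb, and Ddr2 was not covered. The peak over Col1a1 was 19481 bp wide and held 404.5 reads. Of the smooth muscle and pericyte list 9 of 11 were covered at 40.3, led by Mcam (138), Abcc9 (71.4) and Acta2 (60.3). Myh11 and Cnn1, which define mature smooth muscle, were not covered. Tagln was the lowest covered gene, with 15.6 reads (11.6 reads per kb).

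In the macrophage and leukocyte list 5 of 13 genes were covered, none above 20.1 reads per kb, which was the level of the myeloid factor gene Spi1. C1qb (14.4) and C1qa (12.2) followed. Ptprc, Csf1r, Cd68, Lyz2, Cx3cr1, Adgre1, Itgam and Cd14 had no peak over a start. Of the epicardial list Wt1 (89.1), Tbx18 (62.7) and Aldh1a2 (22.8) were covered, and Upk3b, Msln, Upk1b and Krt19 were not. None of 9 erythroid, 12 neuron and Schwann or 13 hepatocyte genes was covered, so that each of these lists was at 0 (upper Wilson limits of the shares 29.9%, 24.2% and 22.8%). The absence of a peak says that no retained peak covered a start in this tissue, not that no cell carried the mark. With a tolerance of 1000 bp, 8 of the 13 macrophage and leukocyte genes and 1 of the 9 erythroid genes had a peak.

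Skeletal muscle genes were covered in 5 of 16 cases. Ckm, the muscle creatine kinase that the heart also uses, had 112 reads per kb, and Casq1 had 66.8. Mylpf (59.2) shared its peak with the start of Tbc1d10b, and Tnnt3 (32.7) and Tnni2 (19.7) had the rest. The fast myosins Myh1, Myh2 and Myh4 and the myogenic factors Myod1, Myf5 and Myog had none. Of 39 Hox genes 6 were covered, at 29.5 reads per kb or less, with Hoxb4 (29.5) and Hoxb2 (24.5) highest, both near the 3′ end of their cluster. Of 1103 olfactory receptor genes 3 were covered, Olfr1396 (50.4), Olfr558 (21.9) and Olfr1033 (16.9).

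Around single loci the form of the signal varied. At Myh6, the fast α-myosin of the adult mouse ventricle, a peak of 24969 bp with 3591 reads ran from -10.09 to 14.9 kb around the start, negative values being upstream. Its fetal neighbour Myh7, which lies upstream, had 1176 reads over 21668 bp, and the pair had 144 and 54.3 reads per kb. At Atp2a2 the peak over the start ran from -33.01 to 9.70 kb, with 140 reads per kb, and the next 4 peaks downstream had 15.2 to 17.9. Gata4 had 3191 reads over its start and a separate peak of 2684 reads from -30.4 to -15.4 kb, which was denser than that over the start (179 against 135 reads per kb). Actc1 was marked by a peak of 12984 bp, whose centre was nearer to the noncoding C130080G10Rik. By nearest start Actc1 was therefore given no peak at all. Ttn, titin, had 949 reads over its start and 18 peaks with 1752 reads in all, and Tbx20 had 2120 reads over 19347 bp.

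**Figure D3:**
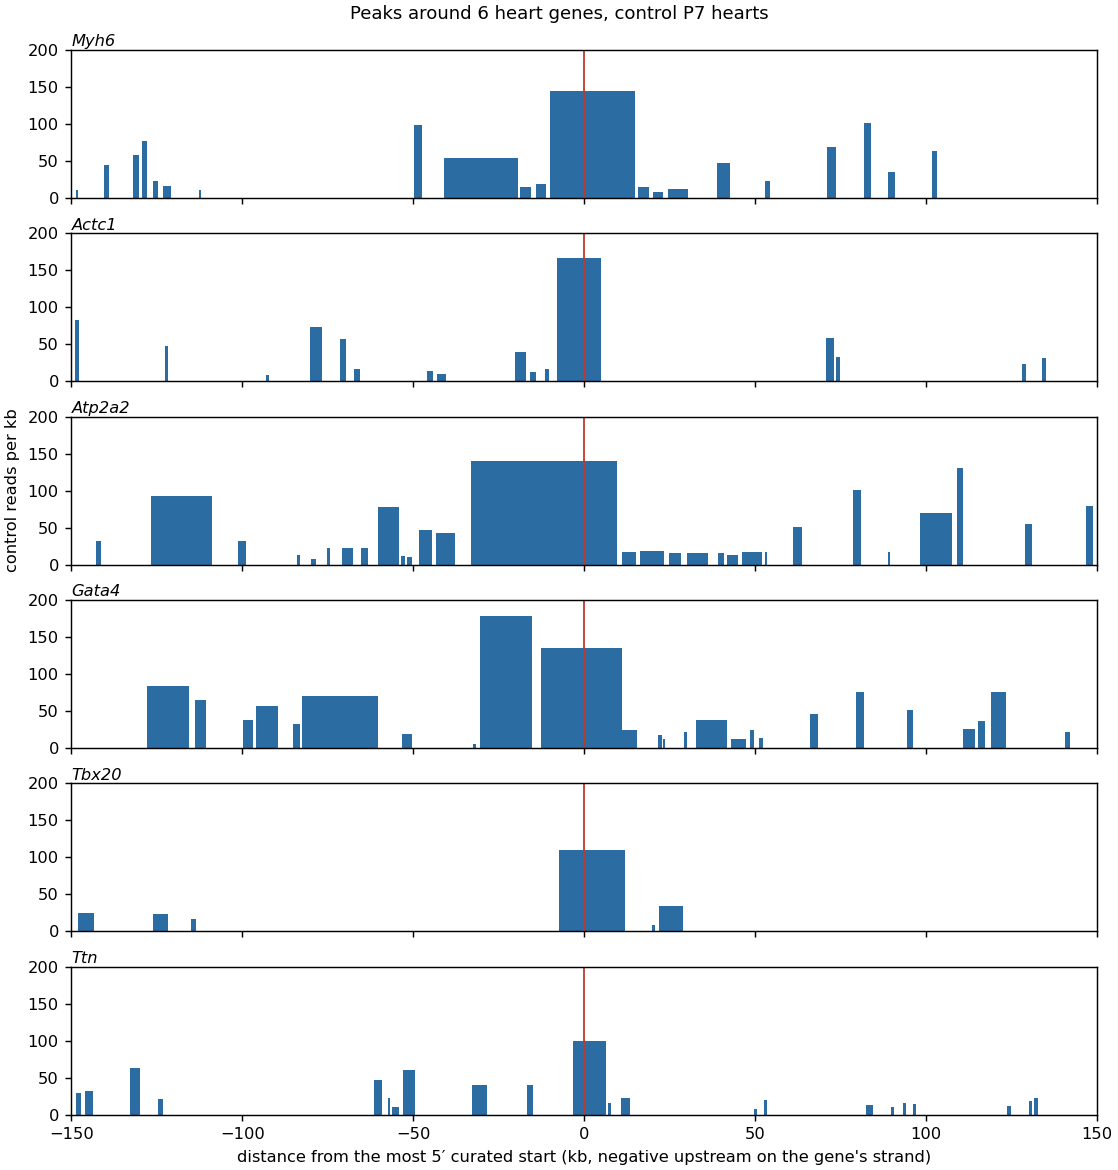
Peaks around 6 heart genes, each bar spanning a peak with its height in control reads per kb, against the distance in kb from the most 5′ start (red line, negative upstream). The peak over the Atp2a2 start reaches -33.01 kb, and the densest peak near Gata4 (179 reads per kb) lies upstream of the start. Peaks of neighbouring genes are included.

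Several microRNAs of heart muscle lie inside these loci. MicroRNAs of a shared seed (bases 2 to 8, in capitals) can pair with the same targets. The sequences are RefSeq's.

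miR-208a-3p: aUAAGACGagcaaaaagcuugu

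miR-208b-3p: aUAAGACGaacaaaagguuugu

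miR-499-5p: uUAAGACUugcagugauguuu

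miR-208a and miR-208b share the seed UAAGACG, and that of miR-499, UAAGACU, differs at its last base. Mir208a lies in an intron of Myh6, in a weak peak of 47.5 reads (14.9 reads per kb). Mir208b lies in Myh7, yet inside the 3591-read peak that covers the Myh6 start. Mir499, inside Myh7b, was in no peak, the nearest being 8651 bp away. The bicistronic pair Mir1a-1 and Mir133a-2, muscle microRNAs made from a common transcript, shared a peak of 16871 bp with 2091 reads (chr2:180384268-180401138). The other copies, Mir1a-2 and Mir133a-1 inside Mib1, shared a peak of 9057 bp with 942 reads.

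In 12 pairs of a fetal or broadly used gene and its adult or muscle counterpart, the counterpart had more reads per kb in 7. Ldhb was taken as the adult counterpart of Ldha, not as a muscle form. The differences were large for Actc1 (167) over Acta1 (no peak), Myl2 (131) over Myl7 (3.42), Pfkm (199, in a peak that also covered Senp1) over Pfkl (48.5), Myh6 (144) over Myh7 (54.3) and Slc2a4 (103) over Slc2a1 (42.2), the insulin-dependent and the basal glucose carriers. They were smaller for Cox6a2 (97.9) over Cox6a1 (76.0) and for Eno3 (113, in a peak that also covered Pfn1) over Eno1 (98.3). The broadly used member was higher for Ldha (236) over Ldhb (72.9), Cox7a2 (158) over Cox7a1 (82.5), Cpt1a (167) over Cpt1b (136) and Hk1 (77.0) over Hk2 (49.99), and the fetal Tnni1 (99.8) was above the adult Tnni3 (79.9). By the reads of the same peaks, a scale added after seeing the data, the adult or muscle counterpart was higher in 9. The peak over Tnni3 (1201 reads, 15030 bp, also over Tnnt1) and that over Cpt1b (1152 reads, also over Chkb) were wider. By sums over nearest peaks the counterpart was higher in 8, but this count depended on which start was nearest to a peak. Acta1 and Actc1 both had a sum of 0 and were counted for Acta1. The sum was 0 for Hk1 and 44.0 for Tnni3, despite 1235 and 1201 reads in the peaks over their starts. Without values per heart, none of these differences could be set against a spread.

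Genes with few CpG dinucleotides around the most 5′ start seldom had a start in a peak. Any start of the gene was counted, so the peak can lie over a later start. The ratio of observed to expected CpG in the 1 kb around the most 5′ start was at least 0.6 for 10361 genes (CpG-rich) and under 0.4 for 7687 (CpG-poor). A start lay in a peak for 86.9% (86.2 to 87.5) of CpG-rich genes, for 57.2% (55.4 to 58.9) of the 2952 between and for 16.5% (15.7 to 17.4) of CpG-poor genes. Where it did, the median was 73.8 reads per kb in the CpG-rich class and 45.5 in the CpG-poor class, whose peaks were wider (2706 against 2245 bp).

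**Figure D4:**
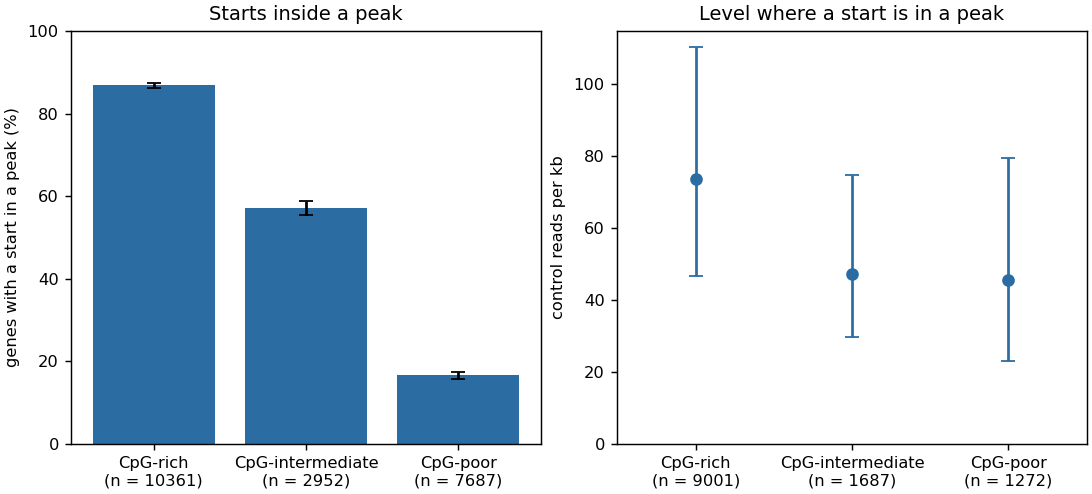
Left, share of protein-coding genes with any start in a peak by CpG class of the most 5′ start, with 95% Wilson intervals. Right, reads per kb of the genes with a start in a peak, as median (point) and quartiles (bars). The share goes from 86.9% in the CpG-rich to 16.5% in the CpG-poor class, and the median levels from 73.8 to 45.5 with overlapping quartiles.

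By reads per kb the 15 highest CpG-poor genes were Ywhaz (333), Nfyc (238), Arih2 (221), Rcbtb2 (213), Dennd6a (213), Uros (206), Zfp646 (192), Jund and Iqcn (190, a shared peak), Popdc2 (189), Deaf1 (188), Fam53c (185), Slc39a10 (180), Rhobtb1 (179) and Tmc8 (179). For several of them, Ywhaz and Nfyc included, the peak covered a later start and not the CpG-poor one. When only the 971 of 1272 genes were kept whose own most 5′ start was in the peak and whose peak held no start of another protein-coding gene, a step added after seeing the data, several muscle genes were among the first 15. Popdc2 (189 reads per kb), a membrane protein of pacemaker and working muscle, Adprhl1 (179), Ldb3 (168), Actc1 (167), Jph2 (158), Pln (156), the caveolin of muscle Cav3 (154) and Fhod3 (152) were the members of this kind. By reads, Adam19 (6339), Pln (3984), Egfl7 (3591), Myh6 (3591) and Srl (3281), a calcium-binding protein of the sarcoplasmic reticulum, led.

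Of the CpG-rich genes 1360 had no start in a peak, and families among them, grouped by product name after seeing the data, differed in coverage. By family, 34 of 118 CpG-rich homeobox genes (28.8%, 21.4 to 37.6) and 4 of 23 voltage-gated potassium channel genes (17.4%, 6.98 to 37.1) were covered, against 86.9% of the whole class. Forkhead genes stood between, at 16 of 32, with Foxp1, Foxo3 and Foxo1 among those covered. Ribosomal protein genes were covered in 82 of 83 cases and genes of the NADH dehydrogenase in 41 of 41. The homeobox genes with the most reads per kb were Zhx2, Meis1, Zhx3, Irx4, Hlx, Prox1, Zeb1 and Zhx1. Meis1, Irx4 and Prox1 among them have roles in heart muscle.

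The 33958 peaks with no start inside were joined where gaps were at most 12.5 kb, which gave 17296 regions. On the curve of reads against rank, 860 regions (4.97%), each with at least 627 reads, lay past the point where the scaled curve had a slope of 1, and they held 40.7% of the distal reads. Their median span was 41858 bp, against 2166 bp for the others. The next region below had 626 reads, so the limit cuts a continuous range. The region with the most reads had 8580 reads in 21 peaks over 217211 bp, and the start nearest to its centre was that of Tns1, tensin at muscle and matrix adhesions. Rbm20 (7681 reads), Tcf4 (7095), Trak1 (6232), Col4a1 (5869), Wnt7b (5603), Msi2 (5325 in 51 peaks over 320659 bp), Pdlim1 (5284), Gm45915 beside Zmiz1 (4781) and Shb (4727) were nearest to the next 9.

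**Figure D5:**
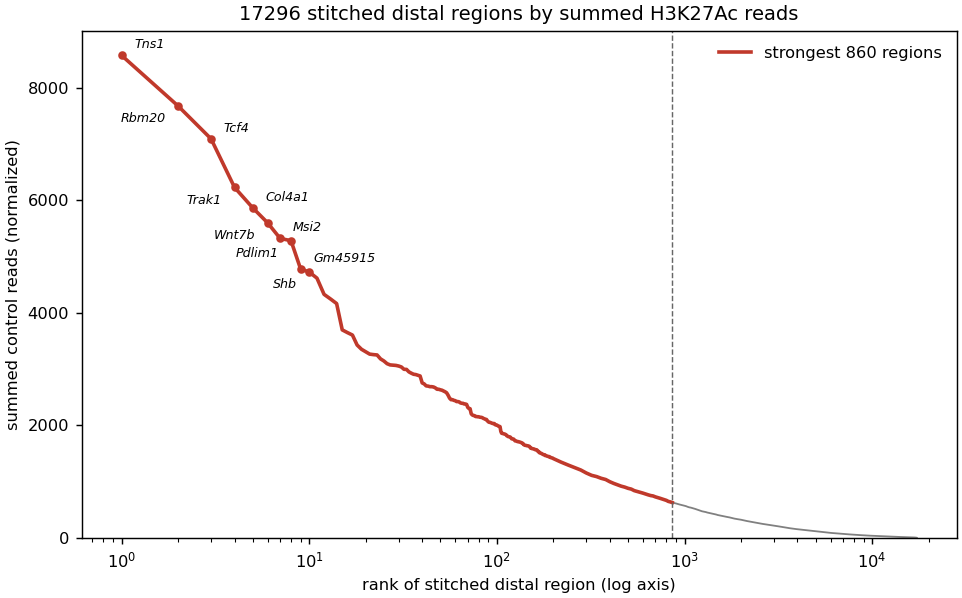
Summed control reads of the 17296 stitched distal regions against their rank (log axis). The red part marks the 860 strongest, and the nearest protein-coding genes of the first 10 are named. The sums go from 8580 reads at Tns1 to 627 at the last of the 860, with no gap at the limit.

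The 860 regions had 762 different protein-coding genes nearest to them, 3.63% of all. Of the cardiac transcription factors 8 of 19 were among these (Gata4, Nkx2-5, Mef2a, Myocd, Prdm16, Meis1, Tead1 and Irx4), as were 6 of 14 endothelial genes (Pecam1, Kdr, Flt1, Eng, Erg and Fli1) and 7 of 20 calcium and channel genes, among them Ryr2, the calcium release channel, Atp2a2 and Pln. Lower shares were found for 2 of 11 smooth muscle and pericyte, 3 of 20 fatty acid oxidation, 3 of 24 sarcomere and 2 of 18 glycolytic genes. Each of these shares was still above the 3.63% of all genes, though it rests on 2 or 3 genes. With 1 gene each, so were the shares of the ventricular (1 of 5), housekeeping (1 of 12), hepatocyte (1 of 13), fibroblast (1 of 14) and cell cycle (1 of 24) lists. A share above 3.63% was thus not particular to the heart muscle lists. None of 17 oxidative phosphorylation genes was among the 762. Wide peaks over a start are left out of these regions by their definition, which bears on the sarcomere count. Ets1, a factor of endothelial and blood cells, was nearest to 5 of the 860 regions and Zfp36l1 to 4. Ablim1, Arhgap26, Bach2, Gatb, Myocd, Pakap and Kdr, the VEGF receptor, were nearest to 3 each.

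In 31033 peaks over 5 kb from a start, the motifs above were counted in the central 500 bp and in 50582 windows of the same size 2000 bp outside the peaks. The MEF2 site was in 3.30% of the peaks (3.11 to 3.51) and in 0.866% of the windows (0.789 to 0.951), a ratio of 3.81 and the largest of the 13. ETS and SP1 matches had ratios of 1.94 each, the E-box one of 1.54 (31.9% against 20.7%) and ESRR one of 1.36 (12.7% against 9.38%). TEAD and MEIS each had 1.18. GATA matches were as frequent in the windows as in the peaks (25.8% against 25.7%), and TBX matches were more frequent in the windows (12.5% against 8.67%). GC content differed too, with medians of 47.2% in the peaks and 44.4% in the windows, and its part in these ratios was not tested.

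Ordered by reads per kb, the MEF2 site was in 1.71% (1.31 to 2.23) of the lowest 10% of these peaks and in 4.61% (3.92 to 5.40) of the highest 10%. SP1 matches went from 9.99% to 14.6%. ESRR went from 11.2% to 13.4%, a difference of 2.19 percentage points that was 0.485 in the central 200 bp and 4.46 in peaks of at most 5000 bp. TEAD went from 30.4% to 27.2% in the opposite direction. GATA was at 24.48% and 24.98%, and this difference changed sign in the central 200 bp. Peaks of the highest 10% had a median width of 3878 bp against 946 bp, so the fixed window took a smaller part of them. Promoter peaks differed from all distal ones, with SP1 in 69.1%, ETS in 22.9% and the MEF2 site in 0.713%.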

How the data were processed

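Per the labels and the study's methods, ventricles of P7 mice on a C57B/6J background were cross-linked, and chromatin was collected with an H3K27Ac antibody. The authors aligned the libraries to the mm10 build (BWA 0.7.17-r1188). HOMER peaks were called in its histone mode against the pooled inputs, and those present in 2 or more samples were retained. The authors then used DiffBind 2.12.0 with DESeq2 1.24.0 for the normalized values. How the input entered the values is not given in the sources used here. The deposited concentrations are the log2 of the authors' mean normalized read count per group, so the total count per library is unknown. The normalization spans all 4 H3K27Ac libraries. The authors' p-value and FDR columns, their fold changes and the mutant and overall means were not used, and 0 columns hold values of single samples.

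Control concentrations were raised from the log2 scale and divided by peak width. All steps that use positions took the 45980 peaks on chromosomes, without 7 on unplaced sequences. Starts came from 45756 curated transcripts of RefSeq on GRCm38.p6, and the nearest start was measured from the peak's centre. Promoters were 1000 bp before to 100 bp after a start. The ranking of the 10 highest peaks by reads per kb, and that of the distal peaks shown or named, took peaks of at least 1000 bp. The top 1%, the densest peak per gene, gene levels and motif shares used peaks of any width. Named genes were those of the highest 10 peaks by reads and by reads per kb, the 15 largest sums, the 10 strongest stitched regions, the 15 highest CpG-poor starts, the 3 highest of each list with the members lacking a peak where these were at most 8, all isoform pairs, the muscle microRNAs and Arid1a. Others were named after their values were seen. Some genes that this rule names are not reported here. Members and lists were chosen with earlier results of these data known. The steps were tested on simulated data. Python 3.11.15 with numpy 2.4.6, pandas 2.3.3, scipy 1.17.1 and statsmodels 0.14.6 was used. Alternatives covered the promoter window, transcript set, low reads, peak width, joining distance, start tolerance, CpG limits and motif window.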

Additional observations from a re-analysis of the deposited data

How the results depend on the processing

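Each choice was changed alone, giving 84 alternative values for 41 results. Of these, 55 stayed within the limits set for each and 29 moved. The promoter share of peaks, 11.3%, was 26.1% with 2000 bp on either side of a start, 10.1% with protein-coding transcripts only and 12.3% with peaks over 10 reads. Under the first 2 of these settings introns held 41.4% and 49.2%, and under all 3 intergenic peaks were 29.0%, 32.6% and 28.5%. Among peaks of at least 1000 bp the median reads per kb were 64.5 in promoters, 27.1 in introns and 23.9 between genes. The top 1% held 6.84% of the reads when ranked by reads per kb and 13.4% with peaks over 10 reads. Of the 15 genes with the largest sums, 0 were shared with a ranking by the densest peak and 8 with one by protein-coding starts. Starts in peaks made up 58.7% of genes within 1000 bp, 56.2% with peaks over 10 reads and 55.4% by the most 5′ start. With peaks over starts kept, 1389 regions were past the limit and 4 of the first 10 nearest genes stayed, and joining within 5000 bp kept 5. A tolerance of 1000 bp gave 8 macrophage and leukocyte genes, 1 erythroid gene and 5 olfactory receptor genes. It also gave all 24 genes of the sarcomere list and all 24 of the cell cycle list. CpG limits of 0.7 and 0.3 gave 89.3%, 60.3% and 12.8% for the rich, intermediate and poor classes. The MEF2 share of the highest minus the lowest 10% of distal peaks, 2.90 percentage points, was 1.10 in the central 200 bp and 4.31 in peaks of at most 5000 bp. For GATA that difference was 0.49 and turned to -1.16 in the central 200 bp, and for ESRR it was 2.19, then 0.485 and 4.46 under the same settings. The causes were not tested.

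No paired analysis was possible because the table holds group means only, and leaving out each heart could not be run for the same reason. The unknown depth also leaves low values, such as those of the 208 peaks at or under 3 reads, without an interval.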

Other observations

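Chromosome X held 940 peaks, or 5.50 per Mb, while the autosomes held between 14.3 and 27.4 per Mb, and its median of 25.3 reads per kb lay within the autosomes' range of 22.3 to 26.1. Chromosome Y held 1 peak. Both sexes were used in the study, and the sex of the 2 control hearts is not given in the sources used here.

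Among the genes of early cell cycle phases the D cyclins had 84.0 (Ccnd1), 85.03 (Ccnd2) and 73.6 (Ccnd3) reads per kb. Cyclin E1 (Ccne1) had 24.7 and E2f1 had 26.99, but E2f3 had 110. The kinases Cdk2, Cdk4 and Cdk6 had 85.35, 73.55 and 96.1. The proliferation marker Mki67 had 44.9. Ccnd3 was also nearest to a strongest stitched region.

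Some strongest stitched regions were nearest to genes with no peak over their own start. Apoa1, of the hepatocyte list, and the olfactory receptor gene Olfr1324 were of this kind. Gata6 had 3517 reads over its start but, with noncoding starts counted, no peak nearest to it. By protein-coding starts alone, as used for the stitched regions, 22 peaks with 5292 reads were nearest to it.

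Further dense peaks over 5 kb from any start were measured. Ski, a transcriptional corepressor, had 268 reads per kb at 13.4 kb from the start and Kdm6b, a histone demethylase, had 262 at 5.84 kb. A peak nearest to the noncoding Chaserr had 262 over 6749 bp. These peaks were named after their values were seen.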
